A study of Homo sapiens with 48 samples.

Results

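The splicing factor families are the 125 probe sets whose annotated gene symbol begins with SRSF, SNRP, HNRNP, SF3A or SF3B, out of 22215 probe sets tested. Membership was decided by symbol alone, but this rule was chosen with earlier results of these data known. SRSF has 31 probe sets, SNRP 21, HNRNP 58, SF3A 6 and SF3B 9. Of the 125, 106 carry a single symbol and stand for 47 genes, and 19 list several symbols. For those 19 any matching symbol sufficed, and they were counted but not assigned to a gene. A gene is represented by its brightest probe set, which is the one with the highest mean over all samples among those with a single symbol.

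RNA was measured on 48 Affymetrix arrays of K562, a human leukaemia line with the fusion kinase BCR-ABL1. Per the labels, 24 samples were mock treated and 24 received 1 micromolar imatinib, an inhibitor of that kinase, for 24 hours. The keywords of the imatinib samples also say mock treated, so the group was taken from title and description. The samples carry letters A to H, called sets here, with 3 mock and 3 imatinib samples in each, and the meaning of the letters is not given. Nothing says that samples were grown or treated separately. The p-values therefore reflect the scatter among these samples, which may be technical. Per the labels, mock RNA was isolated by Trizol and then a column kit, and imatinib RNA by the column kit only, and spike controls were reduced in the imatinib samples. Treatment and RNA isolation therefore cannot be told apart in any set.

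Introns are removed by the spliceosome, which is built from small nuclear ribonucleoproteins, or snRNPs. Most SNRP genes encode proteins of these particles: the Sm proteins form a ring around the small nuclear RNA, and others belong to the U1 or the U2 particle. SF3A and SF3B are complexes of the U2 snRNP that hold it to the branch point of the intron. SRSF genes encode SR proteins, which bind exons and promote their use, and HNRNP genes encode proteins that coat nascent RNA and can repress or promote splice sites. Several members of both families also act in RNA export, stability and translation, and their RNAs are themselves alternatively spliced.

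Promoter sequences from RefSeq (GRCh38.p14) are shown first for members that were lower after imatinib, to show what the families have and do not have in common upstream of their start sites. Of the 47 genes 43 matched a RefSeq promoter, which spans 250 bases before the gene start and 50 after it. HNRNPA1, SNRPD1, SF3B3 and HNRNPA3P1 were not matched. The SNRP windows below hold the ETS motif CCGGAAG, which capitals mark, or its reverse complement CTTCCGG. They lie at chr15:101295325-101295391 (minus strand) for SNRPA1, chr2:70293472-70293538 (minus strand) for SNRPG and chr20:2470794-2470860 (minus strand) for SNRPB, each read 5′ to 3′ on the strand of the gene.
SNRPA1: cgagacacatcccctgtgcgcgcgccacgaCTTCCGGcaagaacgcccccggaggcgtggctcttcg
SNRPG: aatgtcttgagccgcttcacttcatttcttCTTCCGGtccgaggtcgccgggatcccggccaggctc
SNRPB: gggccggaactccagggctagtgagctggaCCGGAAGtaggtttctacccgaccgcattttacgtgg

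The HNRNP windows below hold the E-box CACGTG in capitals, a palindrome that reads the same on both strands. They lie at chr2:177212693-177212758 (plus strand) for HNRNPA3, chr4:82430346-82430411 (minus strand) for HNRNPDL and chr10:68331613-68331678 (plus strand) for HNRNPH3.
HNRNPA3: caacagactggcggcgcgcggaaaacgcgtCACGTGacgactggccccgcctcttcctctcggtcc
HNRNPDL: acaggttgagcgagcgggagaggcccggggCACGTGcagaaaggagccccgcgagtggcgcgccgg
HNRNPH3: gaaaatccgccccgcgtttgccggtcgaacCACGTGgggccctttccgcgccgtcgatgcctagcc

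HNRNPAB and SRSF3 hold a TATA box, TATAAA, with CCAAT boxes upstream, all in capitals, where ATTGG is CCAAT on the other strand. Their windows end at the base before the gene start, at chr5:178204405-178204532 for HNRNPAB and chr6:36594282-36594361 for SRSF3, both on the plus strand.
HNRNPAB: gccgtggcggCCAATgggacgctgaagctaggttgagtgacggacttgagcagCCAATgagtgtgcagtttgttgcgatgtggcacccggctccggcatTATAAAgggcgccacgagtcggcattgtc
SRSF3: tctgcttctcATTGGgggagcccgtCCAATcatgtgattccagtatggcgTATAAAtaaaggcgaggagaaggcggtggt

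The motifs were spread unevenly over the families. CCGGAAG, searched on both strands like every motif here, lay in 16 of the 43 promoters (37.2%). The share was 15.3% of the 9437 promoters of protein-coding genes on the array, called array promoters here. It was 10.7% of all 27305 promoters of the table, which were not limited to protein-coding genes. CCGGAAG was in 7 of 10 SNRP, 3 of 3 SF3A and 2 of 4 SF3B promoters, and in 2 of 9 SRSF and 2 of 17 HNRNP promoters. CACGTG lay in 7 of 43 (16.3%), against 9.45% of array promoters and 7.43% of all, and 6 of those 7 belonged to HNRNP genes and 1 to SF3B1. CCAAT lay in 18 of 43 (41.9%), 11 of them in the 17 HNRNP promoters, against 37.2% of array promoters and 35.7% of all. TATAAA lay in 6 of 43 (14%), against 8.25% and 12%. The NRF1 palindrome was in 0 of 43, the YY1 motif in 1 and a CG-rich palindrome in 2, against 1.92%, 1.80% and 0.795% of array promoters and 1.36%, 0.916% and 0.469% of all. Matches of different motifs were counted even where they overlapped, and a match describes the letters only. The median GC content was 62.3% over the members and 64.0% over the array promoters.

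Splicing factor transcripts were mostly lower after imatinib. In limma's combined fit of 24 against 24 samples, with set as a factor, 94 of the 125 probe sets were lower, 8 were higher and 23 did not pass an adjusted p of 0.05. Over all 22215 probe sets tested, 65.2% passed: 25.8% were lower and 39.3% higher. The median log2 change was -0.33 over the members and 0.05 over all tested. By gene, 41 of the 47 fell, 2 rose (HNRNPA1 and SRSF11) and 4 did not pass (SRSF5, HNRNPH1, SF3A1 and SF3A2), against 27.1% lower and 41.6% higher over all 11963 genes. The median change was -0.38 over the 47 genes and 0.05 over all genes. After quantile normalization 36 of the 47 were lower and 4 higher, and with centred arrays 43 were lower and 1 higher. A fall of at least 1.5-fold was seen for 37 members, against 6.39% of all probe sets, and a rise of that size for 1, against 3.74%.

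**Figure D1:**
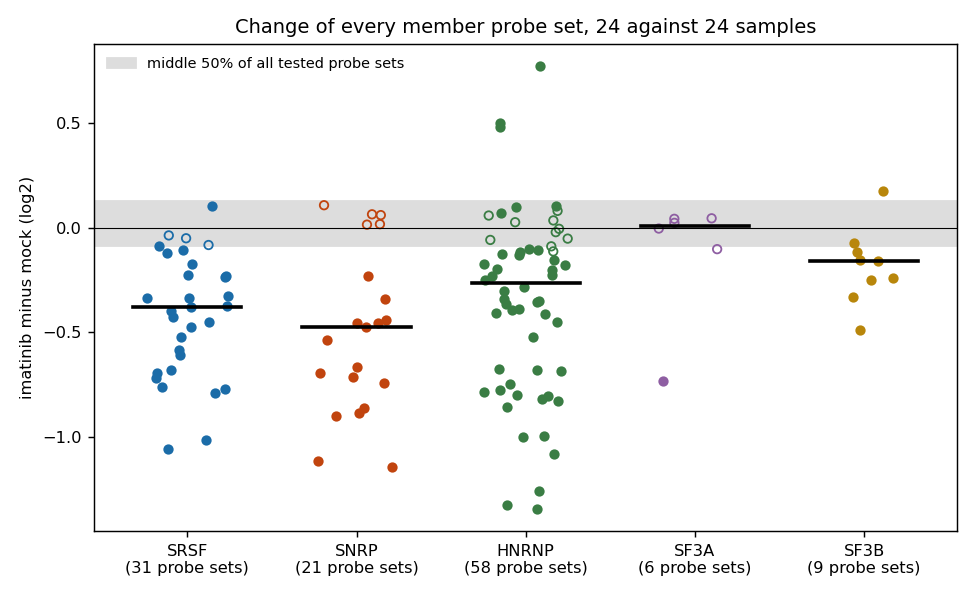
Log2 change after imatinib (imatinib minus mock, combined fit of 24 against 24 samples) of every member probe set, grouped by family, with the family median as a line. Filled points passed an adjusted p of 0.05, open points did not, and the grey band spans the middle 50% of all tested probe sets. Probe sets of SNRP (median -0.47) and SRSF (-0.38) lie lowest, HNRNP (-0.27) spans the widest range, from -1.34 to 0.77, and SF3A (0.01) lies near 0.

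Members were bright, and bright probe sets were called lower more often. As bright as the median probe set or brighter were 103 of the 125. Of these 85 were lower (82.5%) and 6 higher (5.83%), against 40.1% lower and 40.2% higher among all 11108 probe sets at that level.

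The families did not fall by the same amount. By probe set, SNRP had 16 of 21 lower and 0 higher with a median of -0.47, SRSF 27 of 31 lower and 1 higher with a median of -0.38, and HNRNP 42 of 58 lower and 6 higher with a median of -0.27. Of the 6 higher HNRNP probe sets 2 list several symbols, which need not all be hnRNP genes. SF3B had 8 of 9 lower and 1 higher with a median of -0.16, and SF3A had 1 of 6 lower and 0 higher with a median of 0.01. By gene the medians were -0.53 for SNRP, -0.34 for SRSF, -0.23 for HNRNP, -0.25 for SF3B and -0.10 for SF3A. The median of SNRP probe sets lay below that of HNRNP in 8 of 8 sets and below that of SRSF in 7 of 8, and the median of SRSF lay below that of HNRNP in 8 of 8. These orders are descriptions, and no test compared the families. After quantile normalization within sets 4 instead of 8 of the 9 SF3B probe sets were lower, and 2 SF3A probe sets were higher, with an SF3A median of 0.08. With arrays centred on their median, the SF3A median was -0.03, so the direction of the SF3A median depended on the scaling.

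Every SNRP gene with a probe set of its own fell. All 7 Sm core genes among them were lower, with a median log2 change of -0.66. In 6 of the 7 every imatinib sample lay below every mock sample in all 8 sets, against 1185 of all 11963 genes. SNRPD1, which encodes an Sm core protein, had set A levels of 9.28, 9.49 and 9.25 in mock and 8.76, 8.60 and 8.75 in imatinib samples (202690_s_at). To set the 8 sets side by side, values below are given as the log2 level minus the mean of the 6 samples of the set. On that scale the 24 mock samples of SNRPD1 ran from 0.20 to 0.83 with a median of 0.43, and the 24 imatinib samples from -1.10 to -0.10 with a median of -0.39. The groups did not overlap. The share of all probe sets without overlap on this centred scale is not given here, for this gene or those below. SNRPD1 fell by 0.86 ± 0.06 log2 (SE, 24 samples per treatment; limma adjusted p = 1.23e-18), and its further probe set fell by 0.90.

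The other Sm core genes fell by less. SNRPG fell by 0.74, SNRPB by 0.71, SNRPD3 by 0.66, SNRPF by 0.53, SNRPE by 0.45 and SNRPD2 by 0.34. The second probe set of SNRPB, which encodes SmB and SmB', fell by 0.70, beside 0.71 for its brightest. SNRPD2 was the Sm core gene whose samples were separate in 7 rather than 8 sets.

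SNRPA1, the U2 A' protein, had the largest fall of the family. Its set A levels were 8.54, 8.63 and 8.59 in mock and 7.64, 7.72 and 7.84 in imatinib samples (216977_x_at). Over the sets the centred mock values ran from 0.32 to 0.91 (median 0.57) and the imatinib values from -0.96 to -0.32 (median -0.58), with no overlap. The change was -1.15 ± 0.04 log2 or 2.21-fold (limma adjusted p = 2.12e-27), and its further probe sets fell by 1.12 and 0.88. The other U2 protein, SNRPB2, fell by 0.23, and the U1 proteins SNRPA and SNRPC fell by 0.47 and by 0.44. The 5 SNRP probe sets that did not pass all list several symbols, so SNRP genes without a probe set of their own are not covered here. Across the 19 members that list several symbols, 9 were lower (47.4%) and 2 higher (10.5%). Over all probe sets 25.8% were lower and 39.3% higher.

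**Figure D2:**
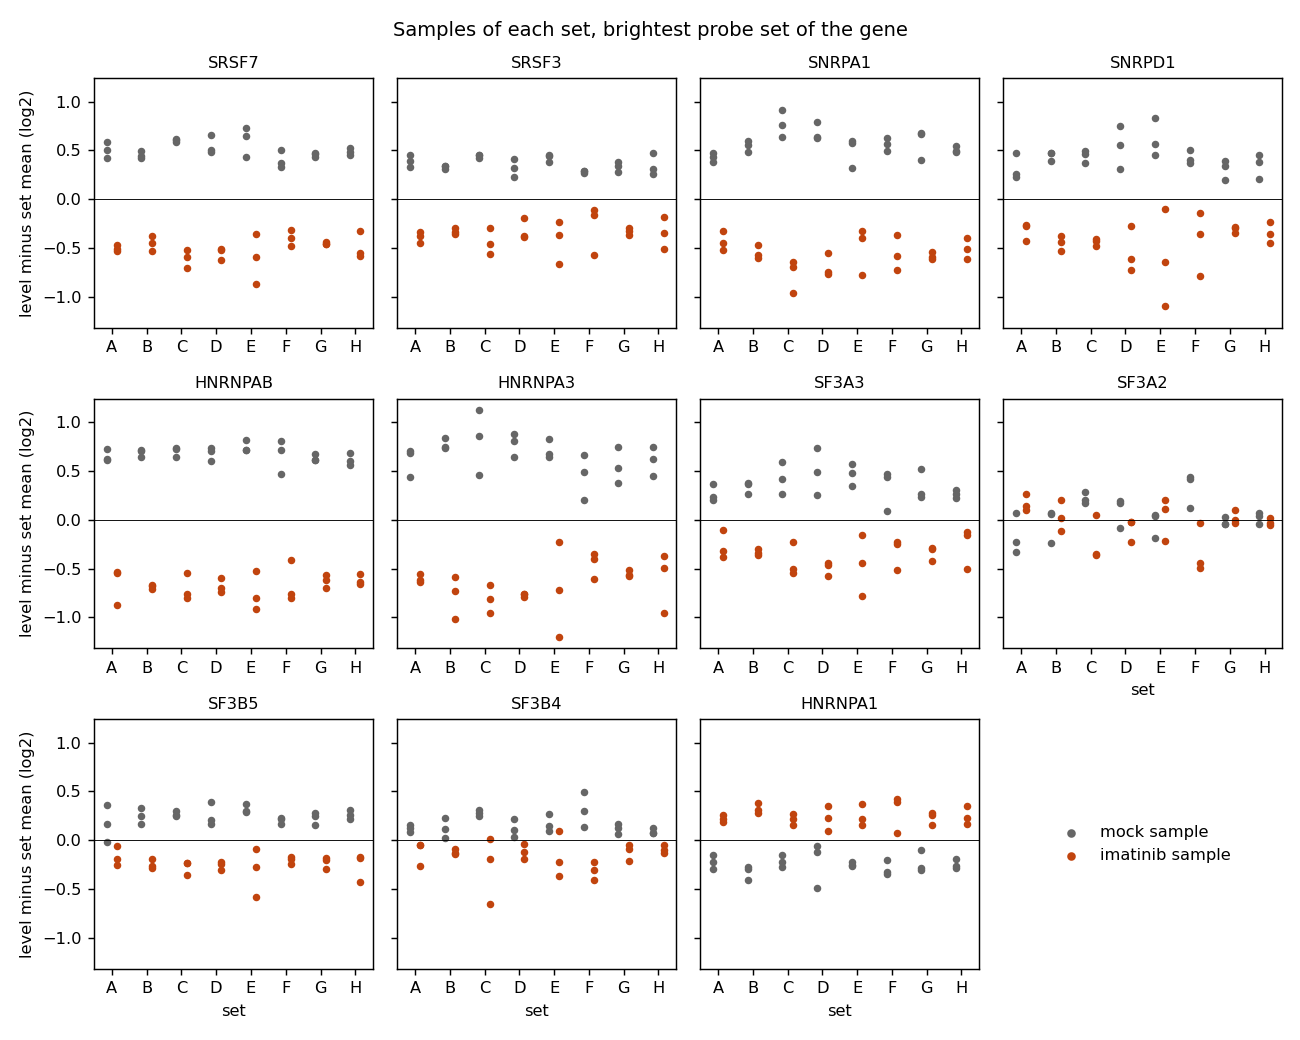
Log2 level minus the mean of its set for each of 24 mock and 24 imatinib samples, for 11 genes with their brightest probe set, with sets on the horizontal axis. Imatinib samples of SNRPA1, SRSF7, HNRNPAB and HNRNPA3 lie below all mock samples, HNRNPA1 lies the other way, and the groups of SF3A2 and SF3B4 overlap.

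Among SR protein genes with a probe set of their own, 7 of 9 fell, 1 rose and 1 did not pass. Another 5 SRSF probe sets list several symbols. They were all lower, but they were not assigned to a gene and are not among the changes given by gene. SRSF7, an SR protein with a zinc knuckle that also links splicing to RNA export, had set A levels of 10.54, 10.46 and 10.38 in mock and 9.44, 9.42 and 9.49 in imatinib samples (214141_x_at). Its centred values ran from 0.33 to 0.73 in mock samples (median 0.49) and from -0.87 to -0.32 in imatinib samples (median -0.51), without overlap. SRSF7 fell by 1.01 ± 0.03 log2, or 2.02-fold (limma adjusted p = 9.09e-30). Its further probe sets 213649_at and 211439_at had smaller changes of -0.47 and -0.09. In set A the mean of its probe set 201129_at was 7.33 in mock and 6.50 in imatinib samples. SRSF3, the smallest SR protein, had set A levels of 10.04, 10.10 and 10.16 in mock and 9.33, 9.37 and 9.25 in imatinib samples (202899_s_at). Its centred values ran from 0.22 to 0.47 in mock samples (median 0.34) and from -0.67 to -0.11 in imatinib samples (median -0.35), again without overlap. It fell by 0.72 ± 0.03 (limma adjusted p = 6.98e-24), and its further probe sets fell by 0.59 and 0.76.

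The remaining SR genes with a probe set of their own changed less. SRSF1, the prototype of the family, fell by 0.52, SRSF8 by 0.38, SRSF10, which acts as a repressor when dephosphorylated, by 0.34, SRSF6 by 0.32 and SRSF4 by 0.12. SRSF5 had changes of -0.08, -0.04 and -0.05 over its 3 probe sets, and none passed. With centred arrays all 3 were called lower, and after quantile normalization 1 of the dimmer probe sets was higher and 1 lower. The call of SRSF4 was lost after quantile normalization. SRSF11 rose by 0.10 (limma adjusted p = 0.0223) by its brightest probe set, a call lost under several settings, while its dimmer probe sets fell by 0.40 and 0.11.

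The HNRNP genes held the largest falls of all families and also the clearest rise. Of 19 genes 17 fell, 1 rose and 1 did not pass. HNRNPAB, an RNA-binding protein of the A/B type, had set A levels of 10.13, 10.25 and 10.14 in mock and 8.98, 8.65 and 8.97 in imatinib samples (201277_s_at). Its centred values ran from 0.47 to 0.81 in mock samples (median 0.69) and from -0.92 to -0.42 in imatinib samples (median -0.67). They did not overlap, and HNRNPAB fell by 1.34 ± 0.03 log2 or 2.54-fold (limma adjusted p = 9.32e-36). The set estimates lay between -1.5 and -1.23.

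HNRNPA3, a relative of hnRNP A1 and A2, had set A levels of 8.13, 8.40 and 8.38 in mock and 7.14, 7.08 and 7.06 in imatinib samples (211932_at). Its centred values ran from 0.20 to 1.12 in mock samples (median 0.68) and from -1.20 to -0.22 in imatinib samples (median -0.63). The groups were separate, and the change was -1.32 ± 0.06 log2 or 2.5-fold (limma adjusted p = 5.78e-24). HNRNPA2B1, which encodes hnRNP A2 and B1, fell by 1.0 or 2.0-fold (205292_s_at), with centred values between 0.26 and 0.86 in mock and between -0.84 and -0.14 in imatinib samples. HNRNPA0 fell by 0.78 by its brightest probe set, while its dimmer probe set 201055_s_at did not pass.

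By its brightest single-symbol probe set, HNRNPA1 moved the other way from these relatives. Its set A levels were between 9.93 and 10.07 in mock samples and 10.47, 10.41 and 10.44 in imatinib samples (214280_x_at). The centred values ran from -0.48 to -0.06 in mock samples (median -0.27) and from 0.07 to 0.43 in imatinib samples (median 0.24), so every imatinib sample lay above every mock sample. The change was 0.50 ± 0.03 log2 or 1.42-fold (limma adjusted p = 1.18e-19). It was called higher in each of the 8 sets fitted alone, against 3.94% of all probe sets. Its 2 dimmer probe sets had changes of -0.06 and -0.02 and did not pass, though the first (222040_at) was called lower with centred arrays and after quantile normalization. The rise of HNRNPA1 thus rests on 214280_x_at alone, and members that list several symbols were not assigned to it. The suffix _x_at marks probes that can also match other transcripts, and HNRNPA1 has many processed pseudogenes, so signal from these was not told apart.

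The other hnRNP genes are given by their brightest probe sets first. HNRNPDL, a relative of hnRNP D, fell by 0.83, HNRNPH3 by 0.75 and HNRNPM by 0.68. The 4 probe sets of HNRNPH3 fell by between 0.68 and 0.82. HNRNPR fell by 0.41 and HNRNPD, which encodes the AU-rich element binding protein AUF1, by 0.39. By their brightest probe sets, the U type genes HNRNPU, HNRNPUL1 and HNRNPUL2 fell by 0.10 to 0.23. HNRNPC, HNRNPF, HNRNPK, HNRNPL and the pseudogene HNRNPA3P1 fell by amounts in that range. HNRNPA3P1 was dim, with set A means of 3.53 in mock and 3.46 in imatinib samples. Some further probe sets fell more. In set A the mean of HNRNPU 200593_s_at was 9.53 in mock and 9.08 in imatinib samples, beside 10.72 and 10.68 for its brightest. The calls of the brightest probe sets of HNRNPU, HNRNPF and HNRNPL were lost after quantile normalization. HNRNPUL2 lost its call with means per set and treatment. The further probe sets of HNRNPU (200593_s_at and 216855_s_at) and HNRNPL (202072_at) stayed lower under both settings. The brightest probe set of HNRNPL had a highest set estimate of 0.18. In set B the mean of 202072_at was 9.05 in mock and 9.35 in imatinib samples. HNRNPH1 did not pass by its brightest probe set, with a change of 0.06 and set estimates from -0.29 to 0.52, and was called higher after quantile normalization. Its dimmer probe set 213470_s_at fell by 0.20, also under the other scalings.

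Subunits of SF3A and SF3B behaved unequally. SF3A3 fell by 0.73 ± 0.05 (limma adjusted p = 7.17e-19), with set A levels of 7.85, 8.01 and 7.88 in mock and 7.26, 7.32 and 7.53 in imatinib samples (203818_s_at). Its centred values ran from 0.09 to 0.73 in mock samples (median 0.35) and from -0.78 to -0.11 in imatinib samples (median -0.35), without overlap. SF3A2 had centred values from -0.33 to 0.44 in mock samples (median 0.06) and from -0.49 to 0.26 in imatinib samples (median -0.02), which overlapped. Its change of -0.10 ± 0.06 did not pass (37462_i_at, limma adjusted p = 0.116). With centred arrays it did, at -0.14 (limma adjusted p = 0.0415). SF3A1 had changes of 0.04, -0.0047 and 0.02 over its 3 probe sets, and none passed, while after quantile normalization its brightest probe set rose by 0.18 and 1 dimmer probe set was also called higher.

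All 5 SF3B genes fell by modest amounts. SF3B5, the smallest of these subunits, had set A levels of 10.30, 10.50 and 10.12 in mock and 10.08, 9.94 and 9.88 in imatinib samples (221263_s_at). Its centred values ran from -0.01 to 0.39 in mock samples (median 0.25) and from -0.58 to -0.06 in imatinib samples (median -0.23), and the groups were separate. It fell by 0.49 ± 0.03 (limma adjusted p = 5.07e-19). SF3B4 had set A levels of 8.03, 7.96 and 8.00 in mock and 7.83, 7.61 and 7.83 in imatinib samples (209044_x_at), and fell by 0.33 ± 0.04 (limma adjusted p = 1.29e-09). Its centred values overlapped, with a highest imatinib value of 0.09 and a lowest mock value of 0.02. SF3B2 fell by 0.25 and SF3B3 by 0.24. SF3B1, the largest subunit and a frequent target of mutation in myeloid disease, fell by 0.07 ± 0.03 (limma adjusted p = 0.044), a call that several settings lost and that turned to 0.05 after quantile normalization. Its 3 further probe sets fell by 0.12, 0.16 and 0.15, and all 3 calls were lost after quantile normalization.

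Within single sets, 3 against 3 samples, the medians of SRSF, SNRP and HNRNP probe sets were below 0 in all 8 sets. The SF3B median was below 0 in 7 sets and 0.04 in set F, and the SF3A median ran from -0.18 in F to 0.17 in A. In the order A to H, 57, 75, 87, 78, 71, 36, 66 and 51 members were lower, and between 3 and 7 were higher. Shares of all probe sets called lower there were 14.7%, 19.9%, 20.1%, 18%, 12.1%, 9.47%, 16% and 11.8%, and shares called higher were 13.6%, 27.8%, 18.9%, 20.9%, 7.24%, 7%, 11.5% and 12.3%. In both directions together, 64, 80, 91, 82, 74, 39, 69 and 54 members were called, against 28.3%, 47.7%, 39%, 38.9%, 19.4%, 16.5%, 27.5% and 24.1%. The median member change lay between -0.43 and -0.21 over the sets. Called lower in all 8 sets were 33 members, against 6.57% of all probe sets. In 43 members, against 8.6% of all, every imatinib sample of a set lay below every mock sample in all 8 sets, and in 3, against 5.43%, above. The estimate was below 0 in all 8 sets for 78 members and above 0 for 3, against 19.2% and 19.8%.

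**Figure D3:**
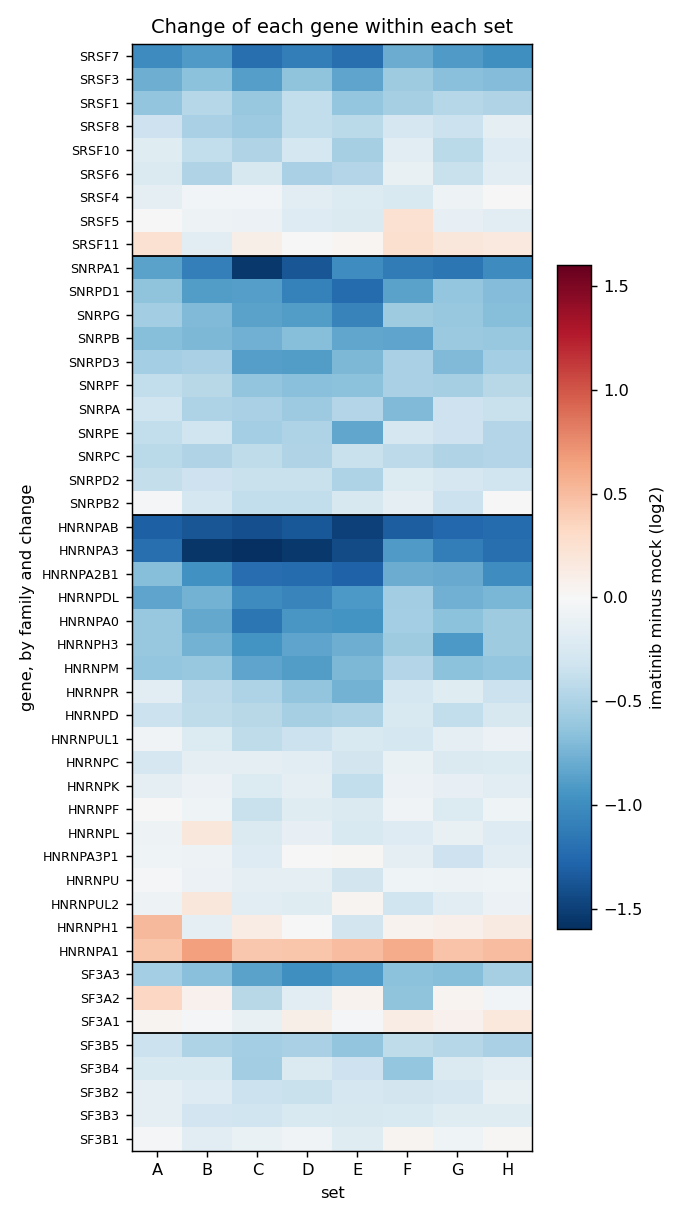
Log2 change after imatinib of the 47 genes (rows, by family) in each of the 8 sets (columns), from the fit of that set alone, with the brightest probe set of each gene. Rows of SNRP genes are lower in all sets, except SNRPB2 with a highest set estimate of 0.0047, and SF3A2 ranges from 0.33 in set A to -0.65 in set F.

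For 12 members the change was not the same size in all sets, against 7.2% of all probe sets, by limma's moderated F test of the set-by-treatment terms. SF3A2 was one of these by both probe sets: its brightest probe set had a change of 0.33 in set A and -0.65 in set F. In set A its levels were 7.19, 7.49 and 7.09 in mock and 7.52, 7.56 and 7.69 in imatinib samples, all imatinib samples above all mock samples. In set F they were 8.32, 8.64 and 8.62 against 8.17, 7.76 and 7.71, the other way round. Single samples moved this number. It was 36 without imatinib replicate 1 of set E, 20 without imatinib replicate 1 of set H, and 19 without mock replicate 2 of set G or without imatinib replicate 2 of set C. It was 7 without mock replicate 3 and 6 without imatinib replicate 3 of set C.

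Probe sets of the same gene often gave different changes. Of the 47 genes 30 had more than 1 probe set. In 34 of 59 pairs of a further and the brightest probe set the change differed, against 45.2% of 7102 such pairs over all genes, by limma on the difference between both probe sets in each sample. The largest difference was that of HNRNPA3, whose probe set 211930_at had a change of -0.11, not called after quantile normalization, where its brightest had -1.32. SRSF7 211439_at, at a mean level of 6.24 against 10.53 for the brightest, had -0.09 against -1.01. HNRNPD, HNRNPDL, HNRNPM, SF3B3 and SRSF11 had probe sets called in opposite directions, in 6 of the 59 pairs, against 3.87% of all pairs.

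HNRNPD 213359_at rose by 0.77 ± 0.05 log2 while its brightest probe set fell by 0.39, a difference of 1.16 ± 0.05. Its set A levels were 5.80, 5.98 and 6.27 in mock and 6.61, 6.87 and 6.85 in imatinib samples. Over the sets the centred values ran from -0.70 to -0.13 in mock samples (median -0.37) and from -0.02 to 0.69 in imatinib samples (median 0.39), without overlap. It was the 1 member that rose by at least 1.5-fold. The 3 opposite probe sets of HNRNPDL, HNRNPM and SF3B3 rose by 0.07, 0.10 and 0.18, at mean levels of 5.33, 4.65 and 6.78. The calls of those of HNRNPDL and HNRNPM were lost with centred arrays and after quantile normalization. Which transcript form each probe set measures is not given in the sources used here.

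**Figure D4:**
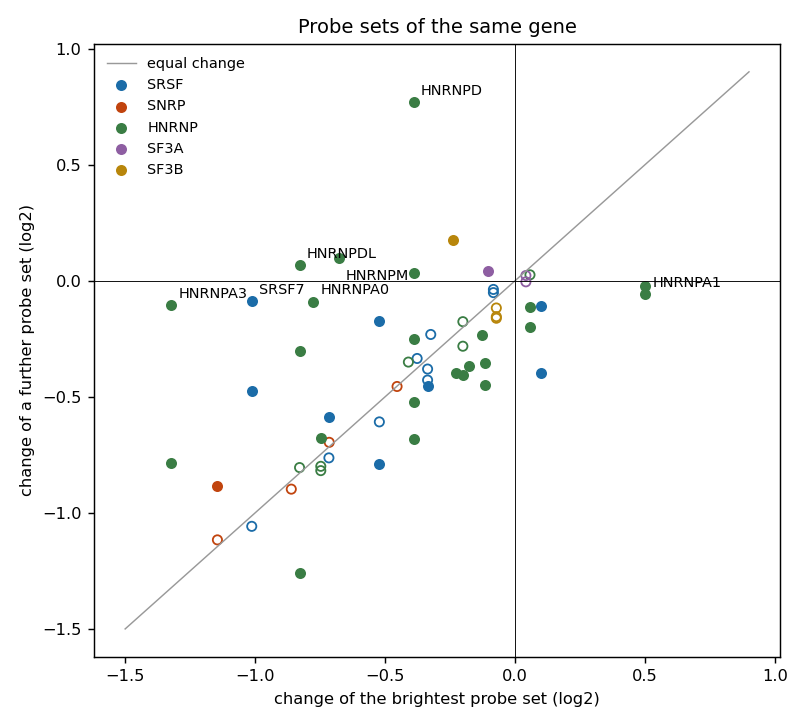
Log2 change of each further probe set (vertical axis) against that of the brightest probe set of its gene (horizontal axis) for the 59 member pairs, coloured by family, with filled points for pairs that differed, open points for the others and a line of equal change. HNRNPA3 211930_at (-0.11 against -1.32) and HNRNPD 213359_at (0.77 against -0.39) lie farthest from the line.

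Other splicing genes, from lists outside these symbols, moved less uniformly. Of 117 measured genes 71 were lower and 25 higher, with a median of -0.24, against 27.1% lower and 41.6% higher over all genes. Of 10 U2 and branch point factors 9 fell and 0 rose, with a median of -0.41: the branch point binding protein gene SF1 fell by 0.63, the helicase gene DDX46 by 0.64 and PUF60 by 0.52. In Sm ring assembly 8 of 12 genes were lower and 2 higher (median -0.49). PRMT5, which methylates Sm proteins, fell by 0.97, its partner WDR77 by 0.86 and STRAP, a part of the SMN complex, by 0.62.

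Of 8 LSM ring genes, whose products bind the U6 RNA or take part in mRNA decay, 5 fell and 1 rose, with a median of -0.29: LSM4 fell by 0.84, LSM7 by 0.48 and LSM3 by 0.29. Of 21 genes of U1, U5 and tri-snRNP proteins 13 fell and 3 rose, with a median of -0.22; PRPF31 fell by 0.82, PRPF4 by 0.56 and DDX23 by 0.54. Of 5 genes of the exon junction complex, which marks spliced junctions, 4 fell and 0 rose, with a median of -0.31. EIF4A3, the helicase that anchors it, fell by 0.79, MAGOHB by 0.84 and RNPS1 by 0.31.

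The catalytic and regulatory lists were mixed. Of 14 genes of the catalytic core and second step 7 fell and 4 rose, with a median of -0.09; DHX16 fell by 0.57, PRPF19 by 0.55 and AQR by 0.42. Of 19 SR kinases and SR-related genes 8 were lower and 6 higher, with a median of -0.05. TRA2B, an SR-like splicing activator, fell by 0.95 and SRRM1 by 0.59, while the kinase gene CLK4, whose product phosphorylates SR proteins, rose by 0.84. Of 28 other RNA-binding regulators 17 fell and 9 rose, with a median of -0.18: MBNL2 fell by 1.03, CELF2 by 0.86 and FUBP1 by 0.62.

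**Figure D5:**
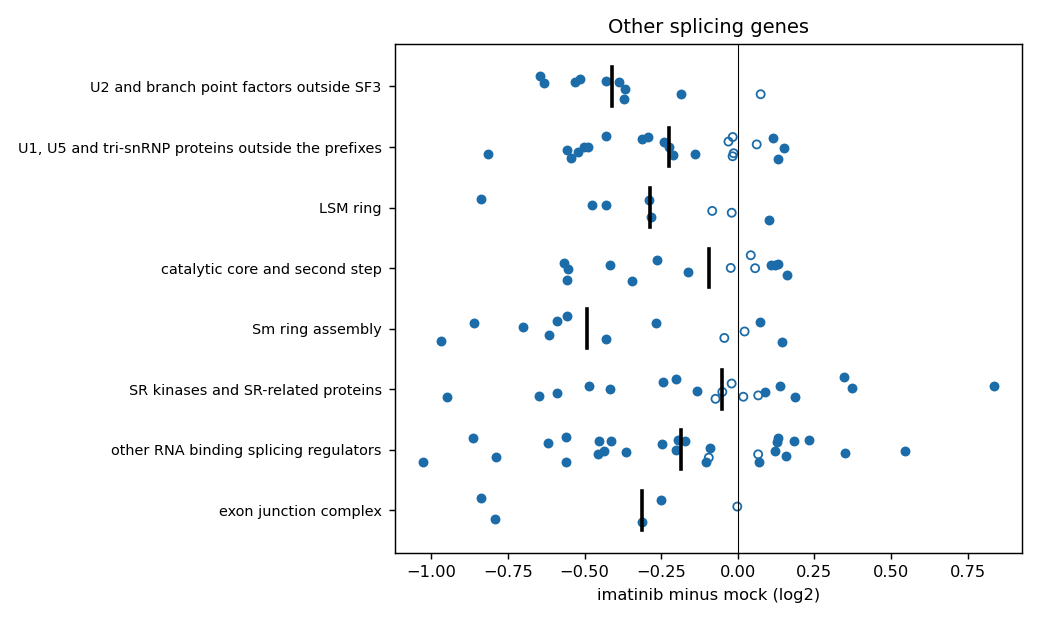
Log2 change after imatinib of the genes of each list of other splicing genes (brightest probe set per gene), with medians as lines, filled points for genes past an adjusted p of 0.05 and open points for the others. The U2 and branch point list (median -0.41) and the Sm assembly list (-0.49) lie lowest, and the list of SR kinases and SR-related proteins (-0.05) spans both directions.

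Markers of cell types were also counted. Over all 11963 genes, 6974 were at least as bright as the median probe set, 41.6% were higher and 27.1% lower. The counts below do not by themselves establish which cells were present. All 7 measured erythroid markers of K562 were at least as bright as the median probe set, and all 7 rose after imatinib, with a median of 1.17 and a mean level of 10.03 in mock and 11.54 in imatinib samples. That bright were 4 of 8 T cell markers, of which list 3 were higher and 1 lower after imatinib (mean level 6.47 in mock and 6.39 in imatinib samples). For B cell markers it was 3 of 5, with 4 of the 5 higher and 0 lower (6.35 and 6.45). Of the monocyte and granulocyte list 0 of 8 were that bright, with 2 higher and 1 lower (5.24 in both), and for fibroblast and epithelial markers 6 of 8, with 2 higher and 3 lower (7.3 and 7.0). The part of these marker changes in the splicing factor results was not tested, and in bulk RNA fewer cells of a type and less RNA per cell cannot be told apart.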

How the data were processed

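The deposited table holds log2 values of 22283 probe sets in 48 samples. The log2 scale is an inference from the range of values, 2.41 to 14.9. How the authors corrected background, summarised probes and normalized arrays is not given in the sources that were used. Set mean levels lay between 5.89 and 7.60, so no level was compared between sets. Array means differed by at most 0.053 within a set, and the median replicate SD lay between 0.061 and 0.147 over the groups. The number of samples limits the precision. After leaving out 68 control probe sets, 22215 were tested two-sided (lmFit and eBayes of limma 3.58.1, R 4.3.3), with Benjamini-Hochberg adjustment over all of them and a threshold of 0.05. Further probe sets of a gene were tested as per-sample differences from the brightest, over 7102 pairs. Symbols came from the platform annotation: 19065 probe sets have 1 symbol, 1043 several and 2107 none. The scripts were tested on simulated data.

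The named genes are all SF3A and SF3B genes; up to 6 largest rises and 6 largest falls past the threshold in each other family; genes with opposite calls or changes that differ between sets; the 4 largest probe set differences; and up to 3 genes with the smallest p per list. Members outside this rule are given as part of a whole family. Members, lists and rule were chosen with earlier results of these data known. Alternatives were other scalings, filters, probe set choices, a replicate block, array weights and leaving out samples or sets. Figures used matplotlib 3.10.9.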

Additional observations from a re-analysis of the deposited data

Results flagged for a closer look

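For 12 of the 125 member probe sets the change after imatinib differed between the 8 sets, against 7.2% of all probe sets, by limma's F test of the set-by-treatment terms. That share is near the background and is no result about the members as a group, and leaving out 1 sample gave between 6 and 36 such members. All adjusted p-values here are from that test. What a set letter marks is not given, and nothing about the difference beyond its values was tested. SNRPA1 was among them by 215722_s_at (adjusted p = 0.00101), which had changes from -1.27 in set C to -0.45 in set E, and by 216977_x_at (adjusted p = 0.0165), from -1.54 in set C to -0.86 in set A. Both were below 0 in all sets.

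SF3A2 changed sign between sets. Its probe set 37462_i_at (adjusted p = 0.00165) had changes of 0.33, 0.07, -0.44, -0.19, 0.06, -0.65, 0.04 and -0.04 in the order A to H. Its other probe set 209381_x_at (adjusted p = 0.0464) ranged from -0.30 in F to 0.33 in B. HNRNPA0 201055_s_at (adjusted p = 0.00652) ranged from -0.75 in C to 0.19 in A and B, whereas 201054_at of the same gene (adjusted p = 0.0433) was below 0 in all sets, from -1.16 in C to -0.54 in F.

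The others differed in size with the same sign in all sets. HNRNPD 221480_at (adjusted p = 0.0099) ranged from -1.13 in G to -0.30 in F. SRSF6 206108_s_at (adjusted p = 0.0198) ranged from -0.51 in C to -0.03 in D. SRSF7 201129_at (adjusted p = 0.0226) ranged from -1.51 in C to -0.67 in F. SNRPA 201770_at (adjusted p = 0.0318) ranged from -0.71 in F to -0.32 in A. SRSF8 214789_x_at (adjusted p = 0.0394) ranged from -0.59 in C to -0.15 in H. HNRNPH3 207127_s_at (adjusted p = 0.0492) ranged from -1.04 in C to -0.54 in A. Set C held the lowest estimate in 8 of the 12.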

How the results depend on the processing

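Of the alternatives, 324 counts stayed within 1.5 times the main value and 12 moved. With arrays centred on their median 4 members were higher instead of 8, and with means per set and treatment 5. Counting genes instead of probe sets gave 2 higher and 41 lower by the brightest probe set, and 1 and 42 by the mean of a gene's probe sets, since 47 genes replace 125 probe sets. Centred arrays gave 100 lower members and quantile normalization 11 higher and 88 lower. Over all probe sets, centring turned the split from 39.3% higher and 25.8% lower into 27.9% and 29.9%, and quantile normalization into 33.3% and 25.9%. With the replicate block 10 members were higher and 93 lower, against 8 and 94. Replicate numbers showed no clear pairing of the samples: 7 of 24 same-number pairs had a correlation over 0.1. Of the 24 samples 7 correlated best with their own number. Same-number correlations ran from -0.52 to 0.49, so pairing within single sets was not settled.

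Leaving out 1 sample gave 7 to 10 higher and 92 to 95 lower members, 33 to 36 differing pairs, and, for sets A to H in order, 52 to 62, 74 to 82, 70 to 91, 66 to 89, 53 to 92, 30 to 36, 53 to 71 and 49 to 54 called members. The 12 members that differed between sets became 6 to 36. They were 7 without mock replicate 3 of C, 19 without imatinib replicate 2 of C, 6 without imatinib replicate 3 of C, 36 without imatinib replicate 1 of E, 19 without mock replicate 2 of G and 20 without imatinib replicate 1 of H. SF3B1 turned from -0.07 to 0.0504 after quantile normalization (limma adjusted p = 0.0553). The causes were not tested.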
